A study of Arabidopsis thaliana with 12 samples.

Results

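The 50 nuclear genes described here encode the light-harvesting antenna proteins of both photosystems, the nuclear subunits of photosystem II and photosystem I, the plastocyanins, the leaf ferredoxin FD2 and the small subunits of RuBisCO. They were chosen by function, as a list of loci of known role, and all 50 of 50 were present among the 19522 genes of the table. Their messenger RNA was measured by mRNA sequencing in 12 libraries of whole Arabidopsis thaliana seedlings, in 4 groups of n = 3. The groups were Col-0 wild type without glucose (Col-0 -Glc), Col-0 with 15 mM glucose (Col-0 +Glc), the mutant ein2-5 in the Col-0 background without glucose (ein2-5 -Glc) and ein2-5 with 15 mM glucose (ein2-5 +Glc). EIN2 is a membrane protein that passes the ethylene signal from the receptors towards the nucleus, and ein2-5 is a single mutant allele of it. All seedlings were 4 days old and had grown in liquid medium that held no glucose under a daily cycle of light and dark, and the treatment lasted 2 h, so the groups called without glucose had been kept without it throughout. Groups follow the sample titles, since the treatment text of every sample names glucose. Whether replicate libraries were grown as separate cultures is not stated, so a p-value here measures only how far these libraries scatter, and that scatter may be technical.

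Photosystem II splits water and photosystem I reduces ferredoxin, and each is surrounded by chlorophyll-binding antenna proteins that pass on the energy of absorbed light. Plastocyanin carries electrons to photosystem I, ferredoxin takes them up, and RuBisCO fixes carbon dioxide in the stroma. The reaction centre proteins and the large subunit of RuBisCO are encoded in the chloroplast, whereas the antenna proteins and many outer subunits are encoded in the nucleus, often by several gene copies, and are imported. Transcript levels of many of these nuclear genes are known to depend on light and on sugar supply.

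The deposited values are in CPM, reads per 1000000 reads of a library, and stand for 11470134 to 17461274 reads in each library. Within groups, the pairwise Pearson r of log2(CPM + 1) was 0.9688 to 0.9937. EIN2 had between 105 and 137 CPM in the 6 Col-0 libraries and between 43.4 and 60.2 CPM in the 6 ein2-5 libraries. Seed markers set the libraries apart: the summed level of 10 genes for seed storage and late embryo proteins was 154, 1.15 and 5.44 CPM in wild type without glucose and 1.25, 3.11 and 1.8 CPM in wild type with it. The same sum was 758, 768 and 1310.4 CPM in ein2-5 -Glc and 139.9, 2148 and 3352 CPM in ein2-5 +Glc. All 10 seed markers were higher in ein2-5 than in Col-0 in both conditions, where 35.3% of all genes were higher without glucose and 26.1% with it. The summed level of 12 root markers lay between 128 and 151 CPM in Col-0 and between 200.2 and 287 CPM in ein2-5. Of the 12, 9 were higher in ein2-5 in each condition, beside the same shares of all genes. In whole seedlings a smaller share of green cells and less RNA of these genes per green cell cannot be told apart. The part of the seed and root signal in the results on photosynthesis genes was not tested. An alternative fit, called the fit on 9 libraries below, left out Col-0 -Glc library 1 and ein2-5 +Glc libraries 2 and 3. These had more seed marker reads than the rest of their own group. ein2-5 -Glc library 3 also had the highest seed marker sum of its group, at 1310.4 CPM, but was kept. This kept library was the lowest of its group for 48 of the photosynthesis genes. The effect of keeping it on that fit was not tested. That fit does not remove the seed signal, since it sets ein2-5 -Glc at 758 to 1310.4 CPM against a single ein2-5 +Glc library at 139.9 CPM. In it all 10 seed markers were lower with glucose in ein2-5, with a median log2 difference of -2.50, and 9 were still higher in ein2-5 than in Col-0 with glucose.

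The 50 genes together took 12% ± 0.457 (SD, n = 3) of the reads in Col-0 -Glc, 9.73% ± 0.489 in Col-0 +Glc, 9.08% ± 1.39 in ein2-5 -Glc and 6.78% ± 1.19 in ein2-5 +Glc. Their summed levels were 120899, 124456 and 115379.5 CPM in Col-0 -Glc, 101646, 98138 and 91979 CPM in Col-0 +Glc, 93162, 103399.6 and 75838 CPM in ein2-5 -Glc, and 81186, 63479 and 58639 CPM in ein2-5 +Glc. All 3 Col-0 libraries without glucose lay above all 3 with it, whereas the ein2-5 groups overlapped, because the highest library with glucose lay above the lowest without it. Of the 10 genes of highest mean CPM, 6 belonged to these 50, and 45 of the 50 had at least 100 CPM in every library. Per kb of coding sequence, the most abundant in Col-0 -Glc were the small subunit gene RBCS1A at 25394 ± 396 CPM per kb, the antenna gene LHCB1.3 at 18190.0 ± 1398 and the small subunit gene RBCS3B at 12666 ± 519 (SD, n = 3). Per kb of all exons the order of the upper genes changed, with LHCB1.3 at 11890.0 above RBCS1A at 10874 and LHCB1.5 at 5113 above RBCS3B at 5039.6 CPM per kb. The lowest per kb of coding sequence were LHCB4.3 at 46.4, LHCB7 at 61.7 and PETE1 at 113 CPM per kb.

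The spread between libraries was wider in the mutant. The median coefficient of variation of the 50 genes was 4.81% in Col-0 -Glc, 6.77% in Col-0 +Glc, 15.4% in ein2-5 -Glc and 20.6% in ein2-5 +Glc. For the genes of at least 10 CPM in the whole table the medians were 6.15%, 7%, 9.83% and 10.1%. Library 1 of ein2-5 +Glc was the highest of its group for 48 of the 50 genes, and library 3 of ein2-5 -Glc was the lowest of its group for 48.

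**Figure D1:**
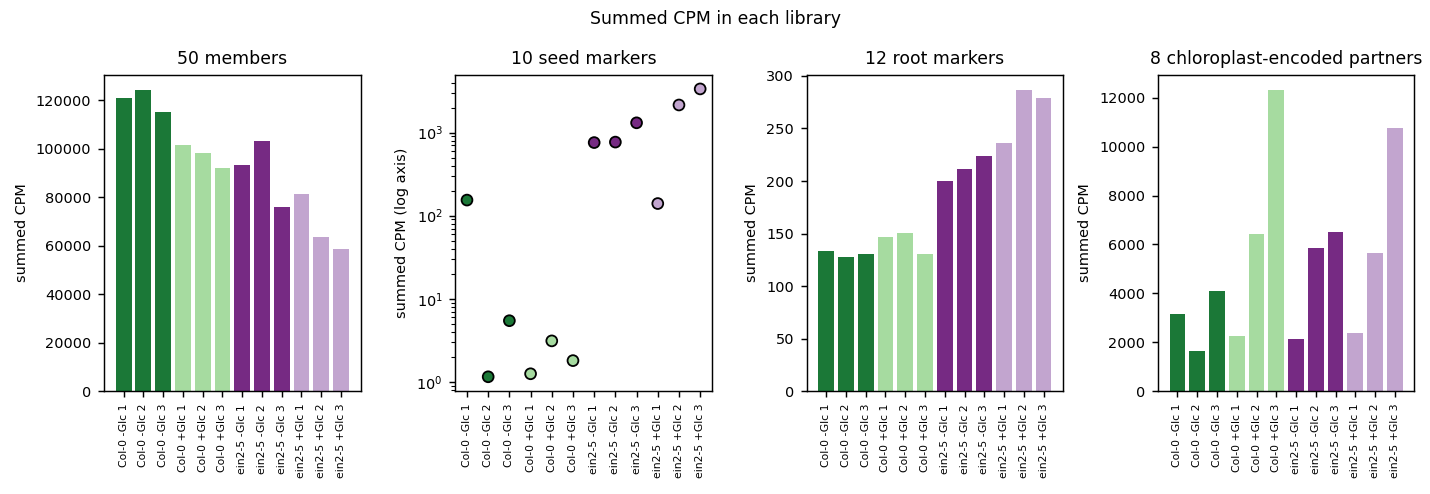
Summed CPM in each of the 12 libraries of the 50 photosystem and RuBisCO genes, of 10 seed markers (log axis), of 12 root markers and of 8 chloroplast-encoded partner genes, with colours for the 4 groups. The photosynthesis sum runs from 124456 CPM in a Col-0 -Glc library down to 58639 CPM in ein2-5 +Glc library 3, which has the highest seed marker sum, 3352 CPM.

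**Figure D2:**
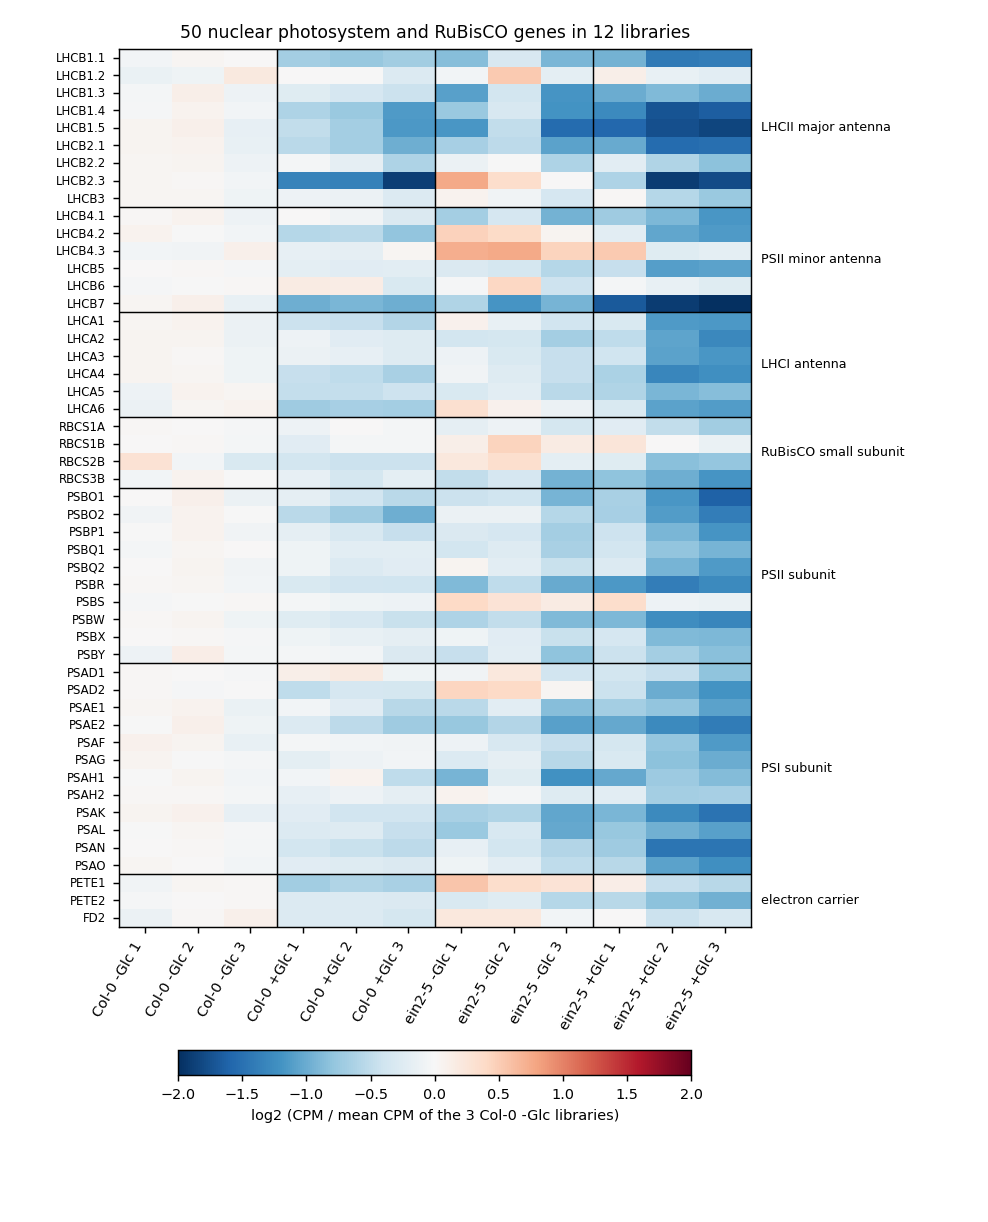
Level of each of the 50 genes (rows, by role) in each of the 12 libraries (columns), as log2 of its CPM over the mean of the 3 Col-0 -Glc libraries; blue is lower and red is higher. The LHCB2.3 row turns from pale or red without glucose to blue with glucose in both genotypes, and most rows are bluest in ein2-5 +Glc libraries 2 and 3.

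The first question was how the genes responded to glucose in each genotype. In Col-0, 14 of the 50 were lower with glucose and none was higher at an adjusted p under 0.05, where 19.7% of all genes were lower (limma-trend on log2(CPM + 1), Benjamini-Hochberg adjustment over all genes, as for every adjusted p below). In ein2-5, 28 were lower and none was higher, where 16.4% of all genes were lower, and these 28 included all 14 of the Col-0 comparison. The median log2 difference of the 50 was -0.29 in Col-0, beside 0.19 for all genes, and -0.46 in ein2-5, beside 0.09 for all genes. The libraries did not overlap between conditions, with lower values under glucose, for 38 members in Col-0 (24.1% of all genes) and for 17 in ein2-5 (18% of all genes).

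The counts depended on the scaling and on the libraries fitted, and so did their order between genotypes. When only the 6 libraries of a comparison were fitted, 32 members were lower in Col-0 (21.9% of all genes) and 12 in ein2-5 (12.4% of all genes), against 14 and 28 with all 12 libraries. With TMM scaling, which allows for the composition of each library, the median of all genes in Col-0 moved from 0.19 to 0.01, the shares of all genes called went from 40.6% higher and 19.7% lower to 30.6% higher and 29.9% lower, and 29 members were lower. In ein2-5 TMM scaling gave 32 lower members, where 20.3% of all genes were lower. edgeR, an alternative test on read counts, gave 33 lower members in Col-0 (29.9% of all genes) and 34 in ein2-5 (19.9% of all genes). Results for single genes below are those of the main fit on 12 libraries unless another is named. In the fit on 9 libraries, 17 members were lower in Col-0, where 18.9% of all genes were lower, and only LHCB2.3, LHCB7 and PSAD2 in ein2-5, where 8.86% of all genes were lower and all 10 seed markers were lower too. ein2-5 +Glc was then a single library, assumed to vary like the other groups, and the median of the 50 in ein2-5 was -0.14.

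**Figure D3:**
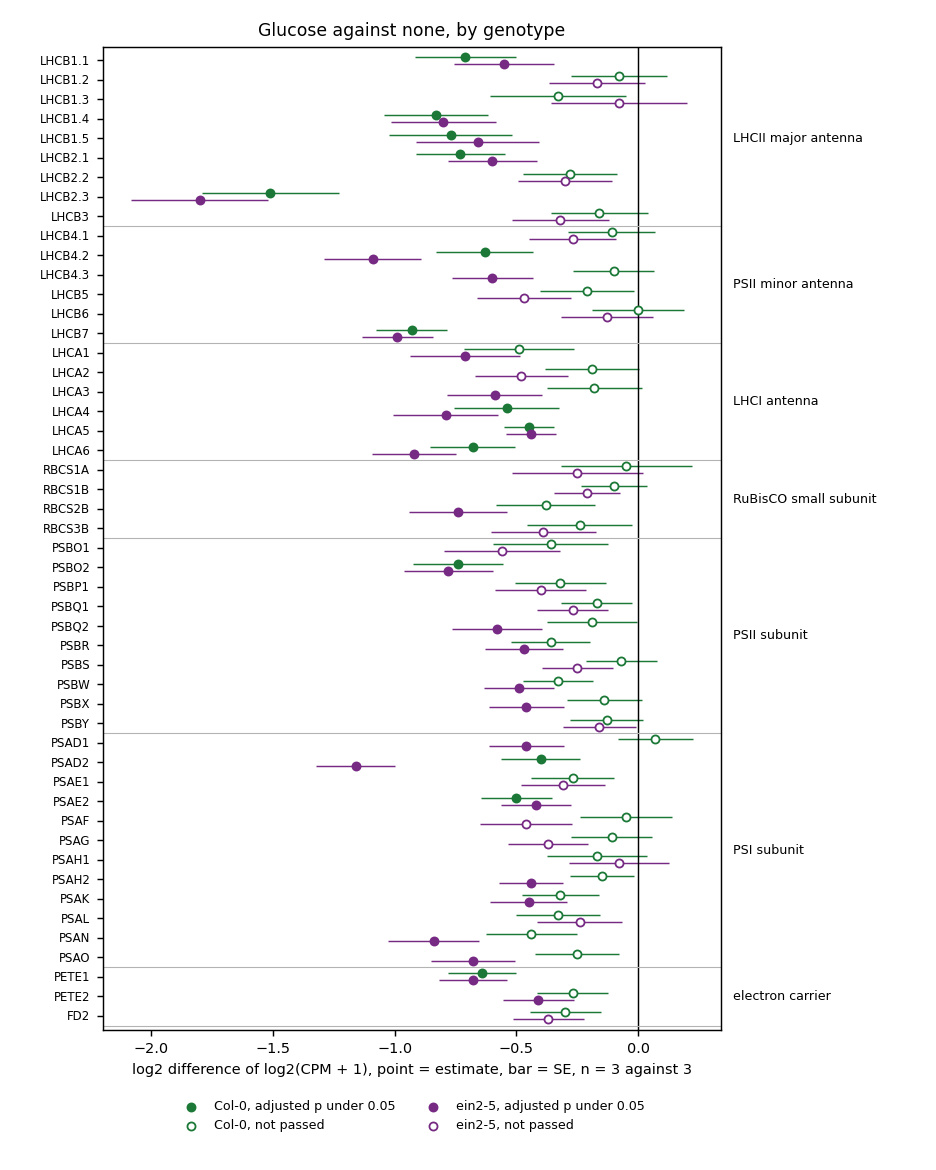
Log2 difference with glucose against without, on the log2(CPM + 1) scale, for each of the 50 genes in Col-0 (green) and ein2-5 (purple); bars are SE, n = 3 against 3, and filled points have an adjusted p under 0.05. LHCB2.3 is the lowest point in both genotypes, at -1.51 and -1.80, and the RuBisCO small subunit genes are all open in Col-0.

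The major antenna of photosystem II, LHCII, is a trimer built from LHCB1, LHCB2 and LHCB3 proteins. Of its 9 genes, 5 fell with glucose in each genotype, namely LHCB1.1, LHCB1.4, LHCB1.5, LHCB2.1 and LHCB2.3. The copies are alike in coding sequence and unlike upstream. LHCB1.1 (AT1G29920), LHCB1.2 (AT1G29910) and LHCB1.3 (AT1G29930) lie side by side on chromosome 1 and are 95.6 to 96.4% identical in coding sequence, but 44.0 to 50% identical over the 250 bases before the annotated gene start. LHCB2.1 and LHCB2.3, on chromosomes 2 and 3, are 85.5% identical in coding sequence and 44.2% upstream. The 250 bases before the annotated start of a copy that fell and of a neighbour or relative that did not, or fell less, are printed 5′ to 3′ on the strand of the gene (RefSeq sequence, build TAIR10.1). Capitals mark matches to 5 motifs known from light-regulated or clock-regulated plant promoters, searched on both strands: the G-box CACGTG, the I-box GATAAG, the CCA1 site AAAAATCT or AACAATCT, the evening element AAATATCT and the element TTATCC.
LHCB1.1, minus strand, chr1:10475970-10476219: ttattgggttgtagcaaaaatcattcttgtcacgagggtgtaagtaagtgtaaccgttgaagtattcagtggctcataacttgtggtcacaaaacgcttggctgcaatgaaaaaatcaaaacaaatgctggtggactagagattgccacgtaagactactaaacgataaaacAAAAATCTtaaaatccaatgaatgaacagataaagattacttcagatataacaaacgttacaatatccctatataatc
LHCB1.2, minus strand, chr1:10473503-10473752: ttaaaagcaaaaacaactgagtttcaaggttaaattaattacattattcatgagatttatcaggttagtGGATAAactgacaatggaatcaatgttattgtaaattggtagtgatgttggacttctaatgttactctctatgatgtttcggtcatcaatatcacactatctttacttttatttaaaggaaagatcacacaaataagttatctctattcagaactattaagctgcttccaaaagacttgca
LHCB2.1, minus strand, chr2:1824481-1824730: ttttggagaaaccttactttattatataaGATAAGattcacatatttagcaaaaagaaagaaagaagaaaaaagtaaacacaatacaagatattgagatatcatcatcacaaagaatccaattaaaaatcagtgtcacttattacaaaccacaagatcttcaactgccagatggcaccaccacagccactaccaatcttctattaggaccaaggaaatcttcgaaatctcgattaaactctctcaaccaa
LHCB2.3, plus strand, chr3:10255656-10255905: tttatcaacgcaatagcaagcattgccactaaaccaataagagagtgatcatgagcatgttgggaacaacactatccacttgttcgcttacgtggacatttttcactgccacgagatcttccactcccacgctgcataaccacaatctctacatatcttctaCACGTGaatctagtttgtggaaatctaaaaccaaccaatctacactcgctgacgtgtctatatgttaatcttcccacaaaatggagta

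LHCB1.1 holds a CCA1 site, LHCB1.2 the element TTATCC on the other strand, LHCB2.1 an I-box and LHCB2.3 a G-box 88 to 83 bases before the start. The I-box read on the other strand and the element TTATCC can overlap, as in CTTATCC, and were then both counted. Over the 50 genes, 20% held a G-box in this window, beside 7.54% of 18919 windows of all annotated genes in the table. An I-box was held by 22.0% beside 12.4%, the CCA1 site by 12.0% beside 8.42%, the evening element by 2.0% beside 5.0%, and TTATCC by 24.0% beside 13.2%. A match is a run of letters and not a shown binding site, and an annotated start need not be where transcription begins.

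LHCB2.3 (AT3G27690) had 359.8, 357 and 337 CPM without and 139.5, 138 and 95.3 CPM with glucose in Col-0. Its ein2-5 values were 595, 448 and 354 CPM without and 229, 94.4 and 102 CPM with glucose. Every library with glucose lay below every library without it in both genotypes. The log2 difference was -1.51 (SE 0.282, adjusted p = 0.000413) in Col-0, a 2.85-fold fall, and -1.80 (SE 0.282, adjusted p = 0.000275) in ein2-5. LHCB2.3 was also among the few that fell in ein2-5 in the fit on 9 libraries, at -0.99 with an adjusted p of 0.0196.

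LHCB1.1 fell from 5780.2, 6152 and 6010.4 CPM to 3722, 3527 and 3681 CPM in Col-0. In ein2-5 it went from 3303, 4774 and 3180.0 CPM to 3103, 2235 and 2303 CPM. The conditions did not overlap in either genotype, although ein2-5 +Glc library 1 came close to the lowest library without glucose. The log2 differences were -0.71 (SE 0.206, adjusted p = 0.0086) and -0.55 (SE 0.206, adjusted p = 0.0457). LHCB1.4 had 2820.2, 3025 and 2756 CPM without and 1865, 1708 and 1309 CPM with glucose in Col-0, a difference of -0.83 (SE 0.214, adjusted p = 0.00438). In ein2-5 its values were 1718, 2297 and 1257 CPM without and 1184, 865 and 914 CPM with glucose, a difference of -0.80 (SE 0.214, adjusted p = 0.00911). The groups were apart in both genotypes, by a narrow gap in ein2-5. LHCB1.5 had 5523, 5753 and 4754 CPM without and 3796, 3324 and 2413 CPM with glucose in Col-0 (-0.77, SE 0.252, adjusted p = 0.0173). LHCB2.1 had 1828, 1844 and 1585 CPM without and 1207, 1097 and 887 CPM with glucose in Col-0 (-0.73, SE 0.183, adjusted p = 0.00373). All 3 libraries with glucose lay below the others for both genes. In ein2-5 LHCB1.5 differed by -0.66 (adjusted p = 0.0499) and LHCB2.1 by -0.60 (adjusted p = 0.0181), and the libraries of LHCB2.1 overlapped there.

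The most abundant copy, LHCB1.3, did not pass in the main fit. With edgeR it was lower in Col-0 (-0.55, adjusted p = 0.0375) and did not pass in ein2-5 (-0.20, adjusted p = 0.46). It had 14311, 15873 and 13691 CPM in Col-0 -Glc and 12375, 11609.7 and 10813 CPM in Col-0 +Glc, which do not overlap, with a log2 difference of -0.33 (SE 0.279, adjusted p = 0.319). In ein2-5 the values were 6914, 11344 and 6434 CPM without and 7313, 7899.6 and 7335 CPM with glucose. Those groups overlapped, and the difference was -0.08 (adjusted p = 0.833). LHCB1.2, LHCB2.2 and LHCB3 did not pass in either genotype either, with differences between -0.32 and -0.08. Of these, edgeR called only LHCB2.2 lower, in Col-0 (-0.47, adjusted p = 0.0449). Of the windows of 50 bases in the exons of the LHCB1 copies, LHCB2.1 and LHCB2.2, 10.6 to 29.5% occur elsewhere in the genome, so reads may have been divided or dropped between these copies, and their single levels are uncertain to that degree. LHCB2.3 has no such window. Summed over copies, LHCB2 fell with glucose in Col-0 (-0.67, SE 0.207, adjusted p = 0.0123) and in ein2-5 (-0.69, SE 0.207, adjusted p = 0.0171). LHCB1 did not pass in either (-0.49 and -0.31), with a larger SE of 0.36, which does not show that it stayed level. The sums were not tested with edgeR. Summed over all 9 LHCII genes, the Col-0 libraries were apart, at 34654 to 38374 CPM without and 23534 to 28337 CPM with glucose. In ein2-5 they overlapped, at 18250.3 to 30029 CPM without and 16525 to 20022 CPM with glucose.

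The minor antenna proteins LHCB4, LHCB5 and LHCB6 link LHCII to the photosystem II core, and LHCB7 is a rarer relative. LHCB4.2 and LHCB7 fell with glucose in both genotypes, and LHCB4.3 fell in ein2-5. LHCB7 (AT1G76570) had 62.5, 64.9 and 54.7 CPM without and 30.7, 32.1 and 30.8 CPM with glucose in Col-0. The ein2-5 libraries had 39.9, 26.8 and 31.7 CPM without and 19, 16.3 and 12.8 CPM with glucose. The conditions were apart in both genotypes, with log2 differences of -0.93 (SE 0.146, adjusted p = 9.53e-05) and -0.99 (SE 0.146, adjusted p = 0.000182). LHCB4.2 had 725, 687 and 663 CPM without and 465, 474 and 401 CPM with glucose in Col-0, and 949, 906 and 718 CPM without and 598, 338 and 317 CPM with glucose in ein2-5. No library with glucose reached one without it within a genotype, and the differences were -0.63 (SE 0.199, adjusted p = 0.014) and -1.09 (SE 0.199, adjusted p = 0.000809). LHCB5, the most abundant of these 6 genes, had 4330.3, 4365 and 4217 CPM without and 3758, 3691 and 3729 CPM with glucose in Col-0. The groups were clearly apart, but the difference of -0.21 did not pass in the main fit (SE 0.193, adjusted p = 0.37). With edgeR LHCB5 was lower in Col-0 and in ein2-5 (-0.42 and -0.51, adjusted p = 0.0407 and 0.0239). Its mutant values were 3514, 3367 and 2908 CPM without and 3117, 2003 and 2057 CPM with glucose, with overlap, and its -0.47 did not pass (adjusted p = 0.0637). LHCB4.1 and LHCB6 differed by -0.11 and 0.00 in Col-0 without passing.

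In the antenna of photosystem I, LHCA1 to LHCA4 form the main belt, and LHCA5 and LHCA6 join photosystem I to the NADH dehydrogenase-like complex. In the main fit LHCA4, LHCA5 and LHCA6 fell with glucose in both genotypes, and LHCA1 and LHCA3 in ein2-5. The ein2-5 libraries of LHCA1 and LHCA3 overlapped, and in the fit on 9 libraries their differences there were -0.15 and -0.11. In Col-0 their libraries did not overlap, but neither gene passed in the main fit (-0.49 and -0.18, adjusted p = 0.0765 and 0.447). With TMM scaling and with edgeR LHCA1 was lower in Col-0 as well (-0.70 by either, adjusted p = 0.0182 and 0.0098). LHCA4, the most abundant, had 6136, 6069.7 and 5570.0 CPM without and 4315, 4178 and 3779 CPM with glucose in Col-0 (-0.54, SE 0.216, adjusted p = 0.0463). The mutant had 5640.1, 4959.5 and 4299.7 CPM without and 3836, 2391 and 2540.3 CPM with glucose (-0.79, SE 0.216, adjusted p = 0.0104). The conditions did not overlap in either genotype. LHCA6 had 109.8, 122 and 125 CPM without and 72.4, 75.4 and 73.9 CPM with glucose in Col-0, where it fell by 0.68 on the log2 scale (SE 0.173, adjusted p = 0.00398). In ein2-5 it had 148, 126 and 110.1 CPM without and 95.9, 56.7 and 54.8 CPM with glucose, and fell by 0.92 (SE 0.173, adjusted p = 0.000991). These groups, too, were apart.

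Of the 4 small subunit genes of RuBisCO none passed in Col-0 in the main fit, and only RBCS2B fell in ein2-5. This depended on the method: TMM scaling called RBCS2B lower in both genotypes, and edgeR called RBCS2B and RBCS3B lower in both. In Col-0 29.9% of all genes were lower by either method. RBCS1A had 13952, 13869 and 13545 CPM without and 12829, 13864 and 13364 CPM with glucose in Col-0, which overlap, and its log2 difference was -0.05 (SE 0.269, adjusted p = 0.89). In ein2-5 it had 12119, 12801 and 10755 CPM without and 11759, 9808 and 8542 CPM with glucose, also with overlap (-0.25, adjusted p = 0.474). RBCS2B (AT5G38420) went from 2199, 2392 and 1644 CPM to 1600.0, 1054 and 1105 CPM in ein2-5 (-0.74, SE 0.203, adjusted p = 0.0106), with the closest libraries almost touching. In Col-0 it had 2314, 1821 and 1538 CPM without and 1473, 1410.1 and 1407 CPM with glucose, and the -0.38 did not pass. RBCS1B, RBCS2B and RBCS3B lie together on chromosome 5, are 96.7 to 97.3% identical in coding sequence, and have 16.9 to 30.4% of their windows of 50 bases elsewhere in the genome. The window upstream of RBCS2B is printed because it holds more matches than the others shown, a G-box between I-boxes.
RBCS2B, minus strand, chr5:15382072-15382321: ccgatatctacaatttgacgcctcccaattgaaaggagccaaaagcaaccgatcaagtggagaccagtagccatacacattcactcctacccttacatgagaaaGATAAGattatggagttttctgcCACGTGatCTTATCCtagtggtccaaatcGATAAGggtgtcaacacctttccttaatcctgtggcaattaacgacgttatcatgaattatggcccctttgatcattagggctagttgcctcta

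Its matches are a G-box 123 to 118 bases before the start, 3 I-boxes and a TTATCC that overlaps the middle I-box.

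Among the photosystem II subunits, PSBO, PSBP and PSBQ stabilise the oxygen-evolving centre on the lumen side, PSBS is needed for the harmless release of excess energy as heat, and PSBR, PSBW, PSBX and PSBY are small membrane proteins. In Col-0 only PSBO2 of these 10 genes fell in the main fit, but 5 were lower with TMM scaling and 6 with edgeR (29.9% of all genes in each). In ein2-5 PSBO2, PSBQ2, PSBR, PSBW and PSBX fell. PSBO2 (AT3G50820) had 1028, 1129.5 and 1072 CPM without and 737, 661 and 549 CPM with glucose in Col-0 (-0.74, SE 0.183, adjusted p = 0.00337). Its ein2-5 values were 995, 991 and 724 CPM without and 682, 496 and 413 CPM with glucose (-0.78, SE 0.183, adjusted p = 0.00409). The groups were apart in both genotypes, narrowly in ein2-5. Its more abundant copy PSBO1 had 3984, 4240.2 and 3642 CPM without and 3493, 3026 and 2732 CPM with glucose in Col-0, which do not overlap, and did not pass (-0.36, SE 0.237, adjusted p = 0.201). In ein2-5 PSBO1 had 2935, 2989 and 2078 CPM without and 2513, 1762 and 1290.5 CPM with glucose, with overlap (-0.56, adjusted p = 0.0736). With edgeR PSBO1 was lower in Col-0 and in ein2-5 (-0.57 and -0.59, adjusted p = 0.0337 and 0.0404).

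In photosystem I, PSAD and PSAE form the docking site of ferredoxin, PSAF and PSAN that of plastocyanin, PSAG and PSAK flank the antenna belt, and PSAH, PSAL and PSAO lie where LHCII can dock. In Col-0 PSAD2 and PSAE2 of the 12 genes fell in the main fit, but 8 were lower with TMM scaling and 8 with edgeR (29.9% of all genes in each). In ein2-5 PSAD1, PSAD2, PSAE2, PSAH2, PSAK, PSAN and PSAO fell. PSAD2 (AT1G03130) had 289, 279.7 and 283 CPM without and 199.7, 225 and 223 CPM with glucose in Col-0 (-0.40, SE 0.162, adjusted p = 0.0483). In ein2-5 it had 381, 375 and 290.5 CPM without and 209.9, 142 and 124 CPM with glucose (-1.16, SE 0.162, adjusted p = 0.00012). The conditions were apart in both genotypes, by a wider margin in ein2-5. PSAD1 had 787, 777 and 758 CPM without and 844, 876 and 726 CPM with glucose in Col-0, with overlap. PSAN had 1457, 1264 and 1084 CPM without and 999, 591 and 592 CPM with glucose in ein2-5, all apart (-0.84, SE 0.187, adjusted p = 0.00307), and its -0.44 in Col-0 did not pass. PSAF, the most abundant by mean CPM, had 2539, 2484 and 2163 CPM without and 2332, 2317 and 2291 CPM with glucose in Col-0, which overlap (-0.05, adjusted p = 0.844). The windows upstream of both PSAD copies, 86.3% identical in coding sequence and 49.3% in these windows, are printed because the copies responded unequally.
PSAD1, minus strand, chr4:1230165-1230414: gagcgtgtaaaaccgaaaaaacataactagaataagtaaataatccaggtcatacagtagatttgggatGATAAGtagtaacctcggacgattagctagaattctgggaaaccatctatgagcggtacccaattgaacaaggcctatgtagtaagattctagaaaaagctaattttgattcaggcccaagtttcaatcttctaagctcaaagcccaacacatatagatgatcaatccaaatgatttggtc
PSAD2, minus strand, chr1:754263-754512: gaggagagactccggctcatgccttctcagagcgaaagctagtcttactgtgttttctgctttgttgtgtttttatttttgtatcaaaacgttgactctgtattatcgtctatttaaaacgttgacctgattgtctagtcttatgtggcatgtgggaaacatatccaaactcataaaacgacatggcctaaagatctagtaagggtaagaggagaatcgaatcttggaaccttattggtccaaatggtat

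PSAD1 holds an I-box and PSAD2 none of the 5 motifs, and the PSAD2 window overlaps the annotated gene AT1G03140.

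Of the electron carriers, the minor plastocyanin PETE1 fell with glucose in both genotypes and the major plastocyanin PETE2 in ein2-5. With TMM scaling and with edgeR all 3 carriers were lower in both genotypes. PETE1 had 67.4, 72.2 and 71.7 CPM without and 43.7, 46.3 and 44.8 CPM with glucose in Col-0 (-0.64, SE 0.14, adjusted p = 0.00149). The mutant values were 104, 89.7 and 85.2 CPM without and 77, 51.4 and 48.2 CPM with glucose (-0.68, SE 0.14, adjusted p = 0.00192), so the conditions were apart in both. PETE2 had 2346, 2397 and 2438 CPM without and 1989, 1990.3 and 1966 CPM with glucose in Col-0, clearly apart but not passing (-0.27, SE 0.147, adjusted p = 0.127). Its ein2-5 values were 1945, 2023 and 1619 CPM without and 1635, 1355 and 1235 CPM with glucose, which overlap slightly (-0.41, adjusted p = 0.0395).

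The glucose responses of the genotypes differed for PSAD2 alone among the 50, by -0.76 (SE 0.229, adjusted p = 0.0338), the fall being larger in ein2-5, where 13.3% of all genes had a lower response in ein2-5. Under TMM scaling the PSAD2 difference was -0.61 with an adjusted p of 0.0842, edgeR and DESeq2 on the recovered reads gave 0.101 and 0.0573, and leaving out single libraries ended the call in 9 of 12 cases. For LHCB2.3 the responses of -1.51 and -1.80 stand side by side without a passing difference, and a missed threshold does not show that the genotypes respond alike.

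The next question was how ein2-5 differed from Col-0 in each condition. These comparisons use the same libraries as the glucose comparisons. Without glucose 18 of the 50 were lower in ein2-5, where 16% of all genes were lower, and 2, LHCB4.3 and PETE1, were higher, where 35.3% of all genes were higher. With glucose 32 were lower, where 20.9% of all genes were lower, and none was higher. The libraries of ein2-5 lay below all those of Col-0 for 30 members without glucose (20.1% of all genes) and for 32 with it (25% of all genes). The median log2 difference was -0.31 without glucose, beside 0.15 for all genes, and -0.55 with glucose, beside 0.02. Of the 18 lower without glucose 17 were also lower with it, the exception being LHCB1.3.

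With TMM scaling 27 members were lower without glucose (27.3% of all genes) and 31 with it (24% of all genes). TMM scaling also moved the shares of all genes called without glucose from 35.3% higher and 16% lower to 26.3% higher and 27.3% lower, and PETE1 then did not pass (adjusted p = 0.191). In the fit on 9 libraries 22 were lower without glucose (14.4% of all genes). With glucose, where 7.77% of all genes were lower and 13.9% higher, only LHCB7, PSBR and PSBW were lower, and LHCB2.3, LHCB4.3 and PETE1 were higher.

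**Figure D4:**
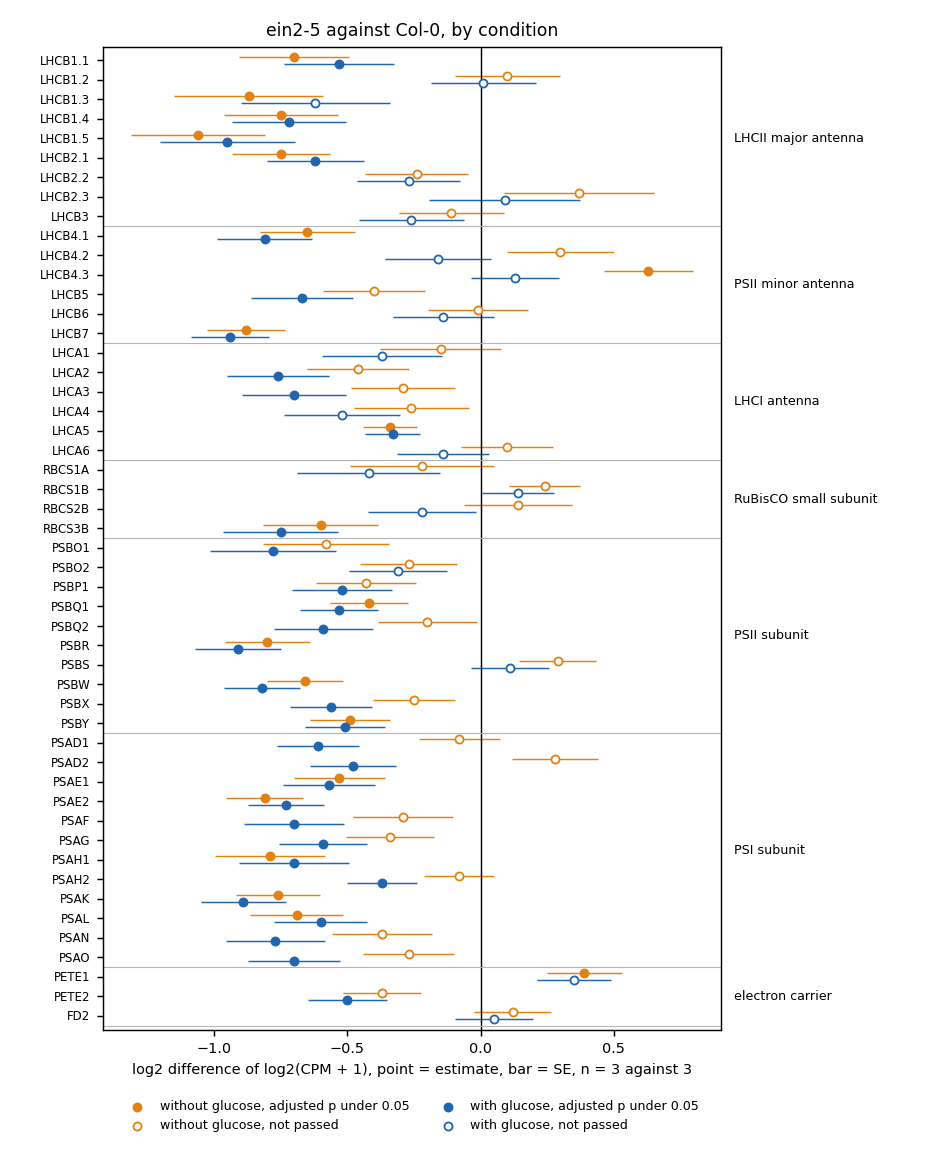
Log2 difference of ein2-5 against Col-0, on the log2(CPM + 1) scale, for each of the 50 genes without glucose (orange) and with glucose (blue); bars are SE, n = 3 against 3, and filled points have an adjusted p under 0.05. LHCB1.5 and LHCB7 lie farthest to the left, all 12 photosystem I subunits are filled with glucose, and LHCB4.3 and PETE1 are the filled points to the right of 0.

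In the antennas the lower members without glucose were LHCB1.1, LHCB1.3, LHCB1.4, LHCB1.5 and LHCB2.1 of LHCII, LHCB4.1 and LHCB7 of the minor antenna, and LHCA5. LHCB1.5 (AT2G34420) had 5523, 5753 and 4754 CPM in Col-0 and 2382, 3789 and 1847 CPM in ein2-5 without glucose (-1.06, SE 0.252, adjusted p = 0.00351). With glucose it had 3796, 3324 and 2413 CPM in Col-0 and 1792, 1586 and 1493 CPM in ein2-5 (-0.95, SE 0.252, adjusted p = 0.00792). No library of ein2-5 reached the lowest of Col-0 in either condition. LHCB7, with the values given above, differed by -0.88 (SE 0.146, adjusted p = 0.000275) without and by -0.94 (SE 0.146, adjusted p = 0.000225) with glucose, again without overlap. LHCB1.3 was lower without glucose (-0.87, SE 0.279, adjusted p = 0.019), and with glucose its -0.62 did not pass (adjusted p = 0.0821). With edgeR it was lower with glucose too (-0.65, adjusted p = 0.0222). LHCB1.4 was lower without glucose, with a log2 difference of -0.75 (SE 0.214, adjusted p = 0.0108). LHCB4.1, the main LHCB4 copy, had 2630.4, 2725 and 2419 CPM in Col-0 -Glc and 1618, 2045 and 1349 CPM in ein2-5 -Glc. With glucose it had 2610.2, 2481 and 2129 CPM in Col-0 and 1583, 1386 and 1160.5 CPM in ein2-5. The genotypes were apart in both conditions, with differences of -0.65 (adjusted p = 0.00845) and -0.81 (adjusted p = 0.00256).

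LHCB4.3 was higher in ein2-5 without glucose, at 63.8, 65.3 and 52.3 CPM against 37.3, 36.8 and 41.5 CPM in Col-0 (0.63, SE 0.166, adjusted p = 0.00643). All 3 ein2-5 libraries lay above all 3 of Col-0. With glucose its values were 55.4, 32.5 and 33.7 CPM in ein2-5 and 34.3, 34 and 39.6 CPM in Col-0, which overlap (0.13, adjusted p = 0.547). PETE1 was higher in ein2-5 without glucose (0.39, SE 0.14, adjusted p = 0.0329), and with glucose its 0.35 did not pass (adjusted p = 0.0551), although the libraries did not overlap.

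Of the 4 small subunit genes of RuBisCO only RBCS3B was lower in ein2-5 in the main fit, and in both conditions. A count of 1 of 4 is near the shares of all genes, 16% without and 20.9% with glucose. It had 6853, 7424 and 7041 CPM in Col-0 and 5025, 5619 and 3673 CPM in ein2-5 without glucose, and 6344, 5545 and 6186 CPM against 4061, 3624 and 3137 CPM with glucose. The genotypes were apart both times, with differences of -0.60 (SE 0.216, adjusted p = 0.0345) and -0.75 (SE 0.216, adjusted p = 0.0129). In the fit on 9 libraries the RBCS3B differences were -0.62 and -0.57. RBCS1A did not pass in either condition in the main fit (-0.22 and -0.42), although its ein2-5 libraries lay below those of Col-0 in both. With edgeR it was lower with glucose (-0.44, adjusted p = 0.0316) and did not pass without it (-0.38, adjusted p = 0.0506). RBCS1B lay above Col-0 in every ein2-5 library without glucose, and its 0.24 did not pass (adjusted p = 0.147).

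In the main fit 4 of the 10 photosystem II subunits were lower in ein2-5 without glucose (16% of all genes), PSBQ1, PSBR, PSBW and PSBY. With glucose 8 were lower (20.9% of all genes), all but PSBO2 and PSBS. Without glucose TMM scaling and edgeR each gave 7 (27.3% and 27.2% of all genes), and with it each gave 8 (24% and 23.8%). The libraries were apart, lower in ein2-5, for 8 of the 10 without glucose (20.1% of all genes) and 7 with it (25%). In the fit on 9 libraries the median log2 difference of the 10 with glucose was -0.20, against -0.55 in the main fit. PSBR (AT1G79040) had 3729.5, 3779 and 3542 CPM in Col-0 and 2008, 2599 and 1825 CPM in ein2-5 without glucose (-0.80, SE 0.161, adjusted p = 0.00123). With glucose it had 2970.0, 2838 and 2795 CPM in Col-0 and 1657, 1416 and 1526 CPM in ein2-5 (-0.91, SE 0.161, adjusted p = 0.000602). The genotypes were far apart in both conditions. PSBW had 1699, 1737 and 1573 CPM in Col-0 and 1089.7, 1182 and 904 CPM in ein2-5 without glucose, and 1416, 1339 and 1225 CPM against 891, 703 and 675 CPM with it (-0.82, SE 0.143, adjusted p = 0.000533). It, too, was apart in both conditions. PSBO1 was lower with glucose (-0.78, SE 0.237, adjusted p = 0.0163) and did not pass without it in the main fit (-0.58, adjusted p = 0.0538). Without glucose its libraries did not overlap, and TMM scaling and edgeR called it lower (-0.76 and -0.74, adjusted p = 0.0178 and 0.0117). PSBS had 1855, 1702 and 1578 CPM in ein2-5 -Glc against 1383, 1397 and 1425 CPM in Col-0 -Glc, above all of them, and its 0.29 did not pass (adjusted p = 0.117).

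In the main fit all 12 photosystem I subunits were lower in ein2-5 with glucose (20.9% of all genes). Without it 5 were lower (16% of all genes), PSAE1, PSAE2, PSAH1, PSAK and PSAL. TMM scaling gave 8 and edgeR 9 without glucose (27.3% and 27.2% of all genes), and each gave 12 with it (24% and 23.8%). The libraries were apart, lower in ein2-5, for 8 of the 12 without glucose (20.1% of all genes) and 11 with it (25%). PSAK (AT1G30380) had 1378, 1412 and 1179.6 CPM in Col-0 and 840.1, 872 and 641 CPM in ein2-5 without glucose (-0.76, SE 0.159, adjusted p = 0.00147). With glucose it had 1133, 1017 and 1014 CPM in Col-0 and 699, 547 and 478 CPM in ein2-5 (-0.89, SE 0.159, adjusted p = 0.000599). The genotypes did not overlap in either condition. PSAE2 differed by -0.81 (SE 0.144, adjusted p = 0.000482) without glucose, with 385, 414 and 363 CPM in Col-0 and 229, 258 and 182 CPM in ein2-5. PSAH1 had 538, 559 and 522 CPM in Col-0 -Glc and 283, 455 and 234 CPM in ein2-5 -Glc (-0.79, SE 0.206, adjusted p = 0.00606). Both genes were below Col-0 in every ein2-5 library, with ein2-5 -Glc library 2 the nearest to it. PSAN was lower with glucose, at 1264, 1202 and 1134 CPM in Col-0 against 999, 591 and 592 CPM in ein2-5 (-0.77, SE 0.187, adjusted p = 0.00474). With glucose ein2-5 +Glc library 1, which had the fewest seed marker reads of the ein2-5 libraries, was nearest to Col-0 in these genes other than PSAH1, and in the fit on 9 libraries none of the 12 photosystem I subunits passed.

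Shares of a copy within its family do not depend on the scaling of a library. There were 27 copies in 10 families of at least a pair. The share of a copy was lower with glucose in all libraries for 9 copies and higher for 9 in Col-0, and lower for 7 and higher for 6 in ein2-5. For 12 copies the direction was the same in both genotypes without overlap, and for none was it opposite. The copies of a family add up to 100%, so a rise of one share entails a fall elsewhere. The PSBO, PSBQ, PSAD, PSAE, PSAH and PETE families are pairs, whose shares mirror each other. A change in a pair is thus counted once as lower and once as higher, and the counts are not of independent changes. How often shares are apart in other gene families was not measured. These shares are descriptions, and no test was made of them.

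LHCB2.3 made up 12.4, 12.2 and 13.1% of the LHCB2 reads in Col-0 -Glc and 6.91, 7.45 and 6.66% in Col-0 +Glc. In ein2-5 it made up 25.4, 19 and 21.6% without and 13.5, 8.22 and 9.14% with glucose. Its share was thus lower with glucose in both genotypes and higher in ein2-5 than in Col-0 in both conditions. Every library of ein2-5 +Glc lay between ein2-5 -Glc and Col-0 +Glc. Library 1, the lowest of the mutant in seed markers, was the highest of them. LHCB4.2 had 21.4, 19.9 and 21.2% of the LHCB4 reads in Col-0 -Glc, 15, 15.9 and 15.6% in Col-0 +Glc, 36.1, 30 and 33.9% in ein2-5 -Glc and 26.7, 19.2 and 21% in ein2-5 +Glc. PSBO2 had 20.5, 21 and 22.8% of the PSBO reads in Col-0 -Glc, 17.4, 17.9 and 16.7% in Col-0 +Glc, 25.3, 24.9 and 25.8% in ein2-5 -Glc and 21.3, 22 and 24.3% in ein2-5 +Glc. For both minor copies, too, the share was lower with glucose in each genotype and higher in ein2-5 in each condition, without overlap. PSAD2 had 26.9, 26.5 and 27.2% of the PSAD reads in Col-0 -Glc, 19.1, 20.5 and 23.5% in Col-0 +Glc, 34.1, 29.6 and 32.8% in ein2-5 -Glc and 25.9, 20.1 and 21.8% in ein2-5 +Glc, and here the genotypes overlapped with glucose.

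Other copies gained with glucose. LHCB1.2 rose in share from 6.22, 5.96 and 8.07% to 8.79, 9.31 and 8.63% of the LHCB1 reads in Col-0, and from 12.3, 11.8 and 12.4% to 14.4, 13 and 12.9% in ein2-5. Its share was higher in ein2-5 than in Col-0 in both conditions. LHCB2.2 went from 24.5, 24.7 and 25.2% to 33.3, 33.2 and 31.4% of the LHCB2 reads in Col-0 and from 27.2, 29.3 and 27.5% to 35.3, 39.5 and 35.2% in ein2-5. LHCB1.3, LHCB4.1, PSBO1 and PSAD1 also had a higher share with glucose in both genotypes, and LHCB1.4 and LHCB1.5 a lower one. Between the genotypes, 16 copies had a share that differed in the same direction in both conditions without overlap, with both copies of a pair counted. Among them PETE1 was higher, at 2.79 to 2.92% of the plastocyanin reads in Col-0 -Glc and 4.24 to 5.08% in ein2-5 -Glc, and RBCS3B was lower, at 28.3 to 30.6% of the small subunit reads in Col-0 -Glc and 21.2 to 25.2% in ein2-5 -Glc.

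**Figure D5:**
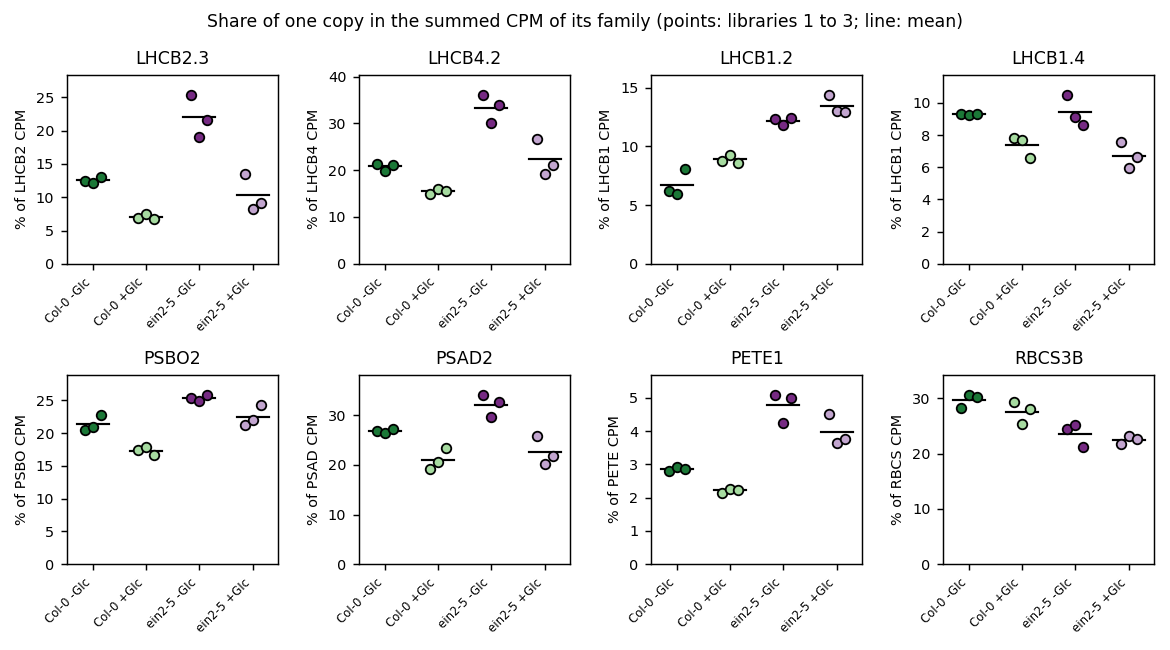
Share of a copy in the summed CPM of its family, in percent, for 8 copies in the 4 groups; points are libraries 1 to 3 from left to right and lines are means of n = 3. LHCB2.3 falls from 12.2 to 13.1% to 6.66 to 7.45% with glucose in Col-0, and LHCB2.3, LHCB4.2, PSBO2 and PETE1 are higher in ein2-5 than in Col-0 in both conditions.

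Other genes of the pathway, taken from lists chosen by function, were set beside the 50. Shares of all genes in the main fit apply to every list below. With glucose 19.7% of all genes fell and 40.6% rose in Col-0, and 16.4% fell and 26.5% rose in ein2-5. In ein2-5 against Col-0, 16% were lower and 35.3% higher without glucose, and 20.9% lower and 26.1% higher with it. A count near its share is no result about a list. With TMM scaling 29.9% fell with glucose in Col-0. Of 11 further thylakoid genes 2 fell and 1 rose with glucose in Col-0, and 7 fell and 1 rose in ein2-5. TMM scaling gave 5 lower in Col-0, and the fit on 9 libraries left 1 lower and none higher in ein2-5. FD1, the minor leaf ferredoxin, rose in both, from 163, 185 and 189 CPM to 305, 291 and 241 CPM in Col-0 (0.63, SE 0.149, adjusted p = 0.00244) and by 0.66 (adjusted p = 0.00333) in ein2-5. FD2, a member, had -0.30 and -0.37 and did not pass in the main fit. PETM, a small subunit of the cytochrome b6f complex, fell by 0.41 and 0.71 on the log2 scale (adjusted p = 0.012 and 0.000615). Between genotypes 3 of the 11 were lower and 1 higher in ein2-5 without glucose, and 6 were lower with glucose (8 without glucose under TMM scaling, and 1 with glucose in the fit on 9 libraries), among them ATPG of the ATP synthase (-0.74 and -0.85, adjusted p = 0.000802 and 0.000389).

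Of 16 Calvin cycle genes 4 fell in Col-0 (19.7% of all genes) and 8 in ein2-5 (16.4% of all genes) with glucose, and none rose. TMM scaling gave 9 lower in Col-0, and the fit on 9 libraries 1 lower in ein2-5. CP12-2, a small regulator that binds enzymes of the cycle, went from 229, 231 and 228 CPM to 61.2, 53.3 and 58.8 CPM in Col-0 and from 188, 185 and 149 CPM to 60.6, 38.1 and 43.5 CPM in ein2-5. The conditions were far apart, with differences of -1.97 (SE 0.141, adjusted p = 8.21e-08) and -1.87 (SE 0.141, adjusted p = 1.08e-06). PRK, the enzyme that makes the acceptor of RuBisCO, fell by 0.69 and 0.95 (adjusted p = 0.00571 and 0.00126). Between genotypes 4 of the 16 were lower in ein2-5 without glucose (16% of all genes) and 2 with it (20.9% of all genes). With glucose the median log2 difference of the 16 was -0.34, and -0.00 in the fit on 9 libraries.

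Of 8 regulators of photosynthesis genes 1 rose and 5 fell with glucose in each genotype, with 3 falling in ein2-5 in the fit on 9 libraries. GLK1, an activator of antenna and chlorophyll synthesis genes, rose from 21.8, 18.4 and 11.4 CPM to 126, 111 and 66.5 CPM in Col-0 (2.48, SE 0.274, adjusted p = 4.22e-06). In ein2-5 it rose from 35.3, 29.5 and 29.9 CPM to 82.2, 67.6 and 42 CPM (0.95, SE 0.274, adjusted p = 0.0138). No library with glucose reached down to one without it, and the rise was smaller in ein2-5 (-1.53, SE 0.387, adjusted p = 0.0153). GLK1 thus rose in the same libraries in which 14 and 28 of the 50 members fell. Its relative GLK2 did not pass in either genotype (-0.25 and -0.68). SIG5, a sigma factor of the plastid RNA polymerase, fell by 1.96 and 1.53 (adjusted p = 8.35e-06 and 0.000231), and SIG2 by 0.43 and 0.45 (adjusted p = 0.0198 and 0.0222). SIG1 did not pass in Col-0 (0.18) and fell by 0.62 in ein2-5 (adjusted p = 0.0179). HY5, a bZIP factor that promotes light responses, fell by 1.09 and 0.59 (adjusted p = 1e-05 and 0.0033). GNC, a GATA factor that promotes greening, fell by 0.99 and 1.01 (adjusted p = 0.000298 and 0.00064), and its relative GNL by 1.01 in Col-0 (adjusted p = 0.00733), with -0.51 not passing in ein2-5. Between genotypes, GLK1 and GNC were higher and SIG5 lower in ein2-5 without glucose, and with glucose GNC and HY5 were higher and SIG1 and SIG5 lower; in the fit on 9 libraries 1 of these regulators was higher and none lower with glucose. GNC differed by 0.87 and 0.86 (adjusted p = 0.0013 and 0.00173) and SIG5 by -1.41 and -0.98 (adjusted p = 0.000275 and 0.00416).

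Of 6 genes for antenna insertion and for the kinases and phosphatase of state transitions, 4 fell in Col-0 and 6 in ein2-5 with glucose, and in the fit on 9 libraries none of the 6 passed in ein2-5. STN7, the kinase that phosphorylates LHCII, had 192, 197 and 180.1 CPM in Col-0 -Glc and 143, 92.7 and 93.8 CPM in ein2-5 -Glc, and 151, 141 and 128 CPM against 81.9, 51.4 and 45.9 CPM with glucose. It was lower in ein2-5 in both conditions, without overlap (-0.81 and -1.26, adjusted p = 0.00371 and 0.000212), as was its opposing phosphatase TAP38 (-0.74 and -1.10, adjusted p = 0.000464 and 3e-05). In this list 3 genes were lower and 1 was higher in ein2-5 in each condition. Of 4 stress-related relatives of the antenna proteins 3 fell with glucose in Col-0, and 2 fell and 1 rose in ein2-5, the rise not passing in the fit on 9 libraries. ELIP1, induced by strong light, had 113, 87.8 and 149.5 CPM in Col-0 -Glc and 276, 272 and 325 CPM in ein2-5 -Glc, and 118, 149.5 and 111 CPM against 451, 381 and 447 CPM with glucose. It was thus higher in all ein2-5 libraries (1.34 and 1.76, adjusted p = 3.13e-05 and 5.41e-06), and in each condition 2 of the 4 were higher and 1, OHP2, was lower in ein2-5.

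The 8 chloroplast-encoded partners, which include the large subunit of RuBisCO and reaction centre proteins, did not pass in any of the 5 comparisons. Their summed level ran from 1649 to 4099 CPM in Col-0 -Glc and from 2240.3 to 12335 CPM in Col-0 +Glc, a spread within groups far wider than that of the nuclear members. Library 3 had the highest sum in each of the 4 groups. The main fit has no replicate block and takes this as scatter, so the missed threshold says little about these genes. The seed markers did not pass with glucose in either genotype with all 12 libraries. Of the 12 root markers 6 rose and 2 fell with glucose in Col-0, where 40.6% of all genes rose and 19.7% fell. In ein2-5 5 rose and 1 fell, where 26.5% of all genes rose and 16.4% fell. LRX1 of root hair walls rose in both (1.41 and 1.19, adjusted p = 6.58e-05 and 0.00064). TMM scaling turned the split in Col-0 to 4 higher and 6 lower, and the fit on 9 libraries gave 2 higher and none lower in ein2-5.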

How the data were processed

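The submitters' processing notes name TopHat, HTSeq and the build TAIR10; versions and strand settings are not given in the sources used here. The deposited values are CPM, reads scaled by the authors to 1000000 per library over the 19522 listed genes, a unit read from the values. All of the 234264 values (100%) were whole multiples of a single read within 0.01 reads, which gave 11470134 to 17461274 reads per library, and 3 reads correspond to 0.172 to 0.262 CPM. TMM factors lay between 0.8875 and 1.0753.

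The main test was limma-trend (limma 3.58.1, R 4.3.3) on log2(CPM + 1), fitting 4 group means to the 12 libraries together, with 8 residual degrees of freedom and Benjamini-Hochberg adjustment over all genes at 0.05; a log2 difference on this scale understates the change of low genes. As an alternative, edgeR 4.0.16 (quasi-likelihood, TMM) on the recovered reads called 11849 genes for glucose in Col-0, 8268 for glucose in ein2-5, 10494 and 9582 for the genotype without and with glucose, and 3539 for the difference of responses. DESeq2 1.42.0 was another. The steps were tested on simulated data. The members and lists were chosen with earlier results of these data known. Full values were given for the most abundant member of each role by mean CPM and for up to 8 members past the threshold with the largest difference in each comparison, and of other lists for up to 3 genes; all regulators were named. RBCS2B, RBCS3B, LHCB4.3, PETE1, PSAD1 and PSBS are given beyond that rule, chosen after their values were seen, as are the copies whose shares are given. Sequences, coordinates and coding lengths (the longest annotated coding sequence) came from the RefSeq annotation of TAIR10.1, identities from Biopython 1.88 alignments.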

Additional observations from a re-analysis of the deposited data

Results flagged for a closer look

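PSAD2 was the single member whose glucose response differed between the genotypes by a test of the difference itself, at -0.76 (SE 0.229, limma-trend adjusted p = 0.0338). Its fall was -0.40 in Col-0 and -1.16 in ein2-5. Leaving out single libraries gave adjusted p-values between 0.000755 and 0.0783, and in the fit on 9 libraries the difference was -0.34 (adjusted p = 0.33).

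GLK1, of the regulators, rose less in ein2-5 than in Col-0, a difference of -1.53 (SE 0.387, limma-trend adjusted p = 0.0153), from a higher level without glucose. With TMM scaling the difference was -1.39 (adjusted p = 0.0196), with edgeR on the recovered reads -1.39 (adjusted p = 0.0219), and in the fit on 9 libraries -1.31 (adjusted p = 0.0609).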

How the results depend on the processing

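Counts of lower members are given here. No member called in a comparison changed direction under any alternative run, and over all alternatives 1948 single calls were kept and 370 lost. Part of this was fixed in advance. Summing copies leaves the values of single-copy genes as they are, and all 39 such calls were kept. Leaving out a library outside a comparison cannot move its log2 difference. For glucose in Col-0 the main count of 14 became 29 with TMM scaling, 33 with edgeR, 42 with DESeq2 (where the share of all genes lower also went from 19.7% to 29.9%, 29.9% and 30%), 32 when only the 6 libraries compared were fitted, and 5 of 33 units when the copies of a family were summed. For glucose in ein2-5 the 28 became 12 with only the libraries compared, 16 with copies summed, and 3 in the fit on 9 libraries. For ein2-5 against Col-0 without glucose the 18 became 29 with edgeR (27.2% of all genes, 16% in the main test), 32 with DESeq2 (26.5%) and 8 with copies summed. With glucose the 32 became 3 in the fit on 9 libraries. The difference of responses, 1 lower, became 0 with TMM scaling, edgeR, DESeq2, copies summed or the fit on 9 libraries. With only the libraries compared in Col-0, the ein2-5 libraries, whose spread was wider, were not part of the fit. The cause of the larger count there was not tested.

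Leaving out single libraries gave 10 to 20, 12 to 38, 11 to 25, 21 to 39 and 0 to 12 lower members in these 5 comparisons. The lowest counts came without Col-0 +Glc 3, ein2-5 +Glc 2, ein2-5 -Glc 3 and ein2-5 +Glc 3 in the first 4, and the 12 without ein2-5 +Glc 1. Glucose in ein2-5 also fell to 15 without ein2-5 -Glc 1 or 2 and to 14 without ein2-5 +Glc 3.

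The 3 libraries left out of the fit on 9 libraries were picked by their seed marker levels in these same data. That choice was not a uniform rule, since ein2-5 -Glc 3, also the highest of its group in seed markers, was kept. Other settings chosen after seeing the data were these. TMM scaling in the fit on 9 libraries gave 30, 5, 30, 3 and 0, and leaving out ein2-5 +Glc 2 and 3 alone gave 4 for glucose in ein2-5, 4 for the genotype with glucose and 0 for the difference. TMM scaling with a replicate block gave 32 for glucose in Col-0, 31 for the genotype without glucose and 0 for the difference.

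Libraries share only replicate numbers: the deviations of same-numbered libraries had r between -0.2573 and 0.5644, over 0.1 in 11 of 18 pairs, and 8 of 12 libraries correlated best with one of their own number. With the replicate number as a block the counts were 18, 33, 22, 32 and 2. Pseudocounts of 0.1 and 5 and a filter at a mean of 1 CPM left each count within 1.5 times. Depth did not limit the members, all far above 3 reads.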
